A study of Pan paniscus with 11 samples.

Results

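The genes of the major histocompatibility complex (MHC) and their partners were examined in cultured bonobo (Pan paniscus) fibroblasts. The set held 10 genes, the class I genes HLA-E, HLA-F, HLA-G and B2M and the class II genes HLA-DRA, HLA-DPA1, HLA-DPB1, HLA-DMA, HLA-DMB and CD74. They were chosen by name and read through the 15 probe sets that the probe annotation assigns to 1 of these symbols alone, out of 12558 probe sets on an Affymetrix human array. Of the 15, 13 were above the detection floor in at least 5 of 11 cultures and were tested. The 2 that were not are the only CD74 probe set and 1 of 2 for HLA-DPB1. Each of 11 cultures was measured on 1 array. The culture of male line 1 taken at 50% confluence came from an animal aged 4 years. Male lines 1 to 5, grown under the standard conditions, came from animals aged 4, 2, 12, 17 and 19 years. Female lines 1 to 5, grown in the same way, came from animals aged 9, 2, 4, 20 and 20 years. All animals are labelled normal, each line is from 1 animal, and neither the confluence of the standard cultures nor the passage number is given.

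MHC class I molecules are found on nearly all nucleated cells and hold peptides made inside the cell for inspection by T cells and natural killer cells. Their heavy chain needs the small subunit beta-2 microglobulin, the product of B2M, to reach the surface. MHC class II molecules present peptides taken up from outside the cell and are made constitutively by professional antigen-presenting cells. In human fibroblasts they are known to be induced by interferon gamma through the transactivator CIITA, whereas class I genes are expressed at rest and raised by interferons.

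The probes follow human sequences, and MHC genes are among the most polymorphic in primates, so probe sets of 1 gene were compared with each other rather than merged. The suffix f in a probe set name marks probes shared across a gene family, s probes shared by several transcripts, and i a set with fewer probes than usual. The HLA-F and HLA-G sets ending in f_at may therefore also read other class I transcripts, and their values are uncertain as to the gene. Of the 10 symbols, 2 (B2M and CD74) were found by symbol among the bonobo RefSeq genes (NHGRI_mPanPan1-v2.0_pri), from which no coordinates were taken. Intensities are linear, in array units, with values under 100 set to 100. A value of 100 is thus the floor, an upper bound and not a level. Levels of different probe sets were not set against each other.

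The cultures expressed fibroblast markers. All 11 fibroblast markers on the array, among them VIM and COL1A2, were above the floor in all 11 cultures. Of 19 blood and antigen-presenting cell markers, 2 were above the floor in all 11 cultures, CD68 and CD3E, and 4 were at the floor in all (ITGAM, CD79B, LCP1 and CORO1A). The summed intensity of the 19 ran from 2507 to 2988 in male lines and from 2293 to 3127 in female lines, where 1900 is the sum with all at the floor. Above the floor in all 11 cultures were 0 of 7 endothelial, 3 of 9 epithelial and 0 of 4 melanocyte markers. The 3 epithelial markers were KRT7 (551 to 3228), KRT8 (624 to 1313) and KRT10 (287 to 703). The summed intensity of the 9 ran from 2495 to 4315 in male lines and from 3052 to 5132 in female lines, with 900 at the floor. The part of epithelial cells was not tested. Between 52.1% and 60.9% of probe sets were above the floor per array. Controls for 18S ribosomal RNA gave 1508 to 2611 for the 50% confluence array and 146 to 313 for that of male line 4, whose ratio of 3' to 5' ACTB signal (2.27) was the highest. Other lines read at most 171 for these controls.

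Class I probe sets were above the floor in all standard lines, apart from that of HLA-E. HLA-E presents leader peptides of other class I chains to natural killer receptors. It read 139, 185, 100, 214 and 169 in male lines 1 to 5, and 498, 100, 100, 251 and 151 in female lines 1 to 5. It was at the floor in male line 3 and in the 2 youngest female lines, 2 and 3, and was highest in female line 1. The sexes overlapped.

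HLA-F encodes a class I molecule that is largely kept inside resting cells. The set 37420_i_at read 236, 465, 108, 514 and 952 in male lines 1 to 5, and 1337, 169, 254, 770 and 774 in female lines 1 to 5. Its highest line was 12.4-fold above its lowest, and its SD of 1.18 log2 was the largest of all 13 probe sets tested. An SD over 1 was seen in 2.15% of all probe sets tested. The second set, 37421_f_at, read 2113, 1820, 1730, 1318 and 2462 in male lines 1 to 5, and 2320, 1085, 1655, 2934 and 2449 in female lines 1 to 5. The spread of this set was smaller, 2.70-fold from lowest to highest. Both sets put female line 2 among the 3 lowest lines. Male line 3 was the lowest of all by the first set, but by the second it was above female lines 2 and 3 and male line 4.

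HLA-G is best known in humans from the placenta, where fetal trophoblast cells display it to maternal immune cells. Its set 40369_f_at read 1110, 1455, 927, 838 and 1601 in male lines 1 to 5, and 2161, 1047, 1128, 1880 and 1600 in female lines 1 to 5. Its set 40370_f_at read 834, 944, 1069, 866 and 1370 in male lines 1 to 5, and 1786, 942, 988, 2108 and 1085 in female lines 1 to 5. By both sets female lines 1 and 4 were the 2 highest and male line 5 the highest male. Since both carry the family suffix, they do not show that HLA-G itself was expressed.

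B2M was read by 3 probe sets, which did not give the same order of lines. The set 201_s_at read 16746, 18950, 12343, 12892 and 21565 in male lines 1 to 5, and 9843, 7215, 10251, 10919 and 12530 in female lines 1 to 5. By this set 4 of 5 male lines were above every female line, and male line 3 lay between female lines 4 and 5. The set 34644_at read 3691, 4660, 3090, 6104 and 4060 in male lines 1 to 5, and 7180, 3655, 3731, 9030 and 3798 in female lines 1 to 5. The set 428_s_at read 13388, 13450, 8824, 13444 and 13288 in male lines 1 to 5, and 14287, 8915, 10397, 18287 and 12379 in female lines 1 to 5. By the last 2 sets the sexes overlapped widely and female lines 4 and 1 were highest, whereas by 201_s_at female line 1 was the second lowest of all 10 lines.

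**Figure D1:**
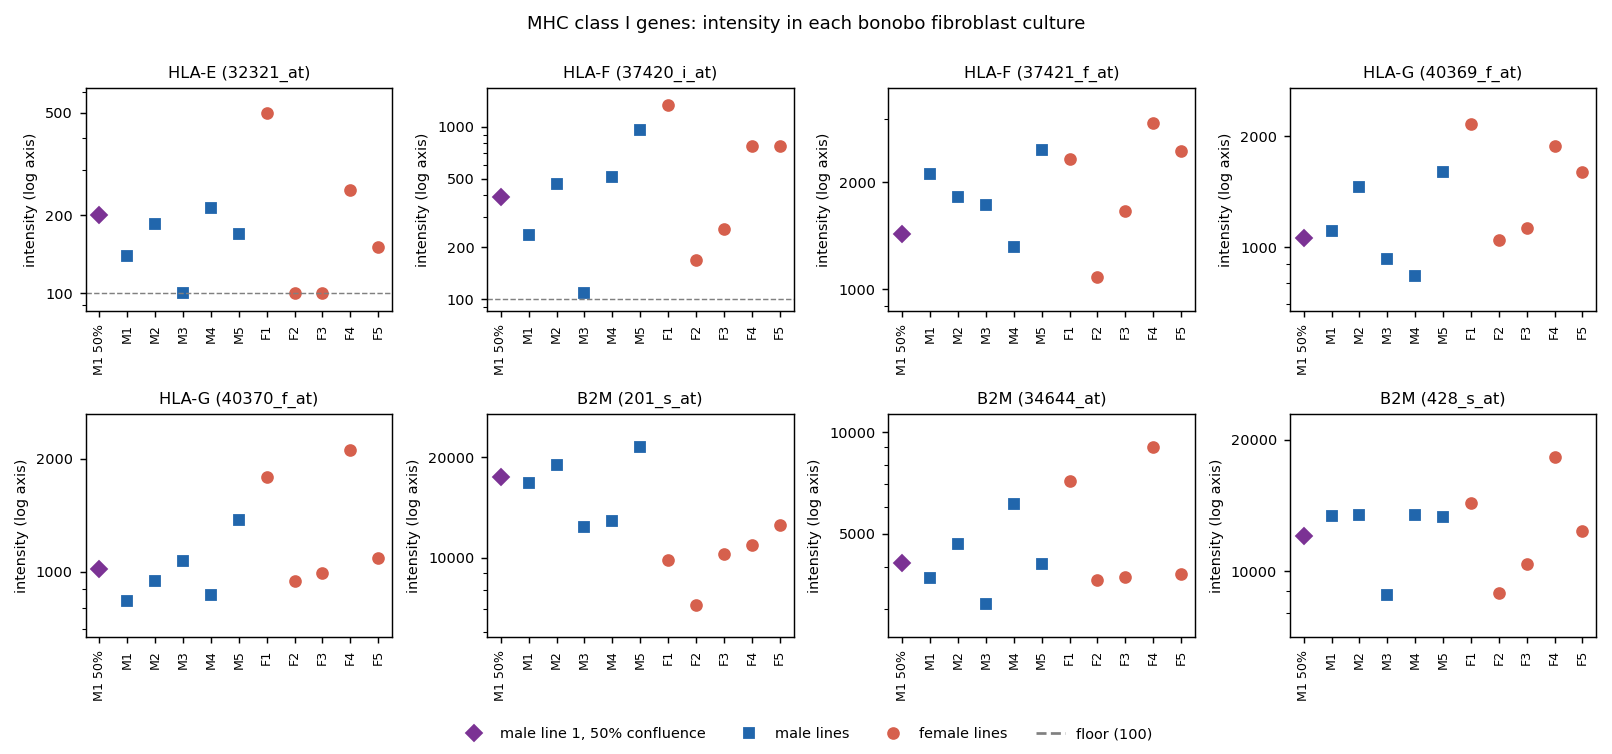
Intensity (log axis, array units) of the 8 class I probe sets in each culture, with male line 1 at 50% confluence (M1 50%, diamond), male lines 1 to 5 (M1 to M5, squares) and female lines 1 to 5 (F1 to F5, circles), each point 1 array and the dashed line the floor of 100. Female lines 1 and 4 stand high and female line 2 low in most panels, and B2M 201_s_at differs, with 4 of 5 male lines above all female lines.

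The same lines were high or low across class I probe sets. Of the 8 sets, female line 4 was among the 2 highest lines in 6, as was female line 1, and male line 5 among the 3 highest in 5. Female line 2, from an animal of 2 years, was among the 3 lowest in 8 of 8, and male line 3, from an animal of 12 years, in 5 of 8. Because RNA was taken from whole cultures, fewer expressing cells and less RNA per cell cannot be told apart. Over the 10 lines, Pearson r of log2 intensity was positive for all 21 pairs among the 7 class I sets other than B2M 201_s_at (0.38 to 0.84, median 0.69). For B2M 201_s_at against these 7 it ran from -0.15 to 0.41. These ranges are a description, since the arrays share their scaling and the f_at sets may share transcripts.

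Agreement between probe sets of a gene was tested over the 10 lines by permutation of pairings (100000 resamples, two-sided) in 7 pairs chosen after the values had been seen. B2M 34644_at and 428_s_at rose and fell together, with Pearson r = 0.82 (permutation p = 6.00e-05, adjusted 0.00042) and Spearman rho = 0.92 (p = 0.00050, adjusted 0.0035). Without female lines 4 and 1, the 2 farthest from the median, r was 0.65. B2M 201_s_at gave r = 0.35 with 428_s_at (rho = 0.18, permutation p = 0.327 and 0.630) and r = -0.14 with 34644_at (rho = 0.091, permutation p = 0.692 and 0.813), neither past the threshold after adjustment. Without male line 5 and female line 2 these were 0.019 and -0.34. The HLA-G sets had r = 0.80 and rho = 0.81 (permutation p = 0.00494 and 0.00756, adjusted 0.0157 and 0.0176). Without female line 1 and male line 4, r was 0.71. Both HLA-G sets end in f_at, so their agreement does not show that HLA-G itself was read. The HLA-F sets had r = 0.63 and rho = 0.67 (permutation p = 0.0575 and 0.0376), which did not pass after adjustment (0.0805 and 0.0527), and r = 0.52 without male line 3 and female line 2.

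The HLA-F set 37421_f_at also varied with the HLA-G sets. It gave r = 0.78 and rho = 0.82 with 40369_f_at (permutation p = 0.00672 and 0.00512, adjusted 0.0157 and 0.0176), and r = 0.81 without female lines 2 and 4. With 40370_f_at it gave r = 0.69 and rho = 0.73 (permutation p = 0.0125 and 0.0206, adjusted 0.0218 and 0.0360), and r = 0.60 without the same 2 lines. This HLA-F set thus had a higher r with both HLA-G sets than with the other HLA-F set. The difference between these r values was not tested. The HLA-F set and both HLA-G sets here end in f_at, so they may read the same class I transcripts. The pairs were also chosen after the values had been seen. Their p-values thus cannot show that HLA-F and HLA-G themselves vary together, and the part of shared transcripts was not tested.

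**Figure D2:**
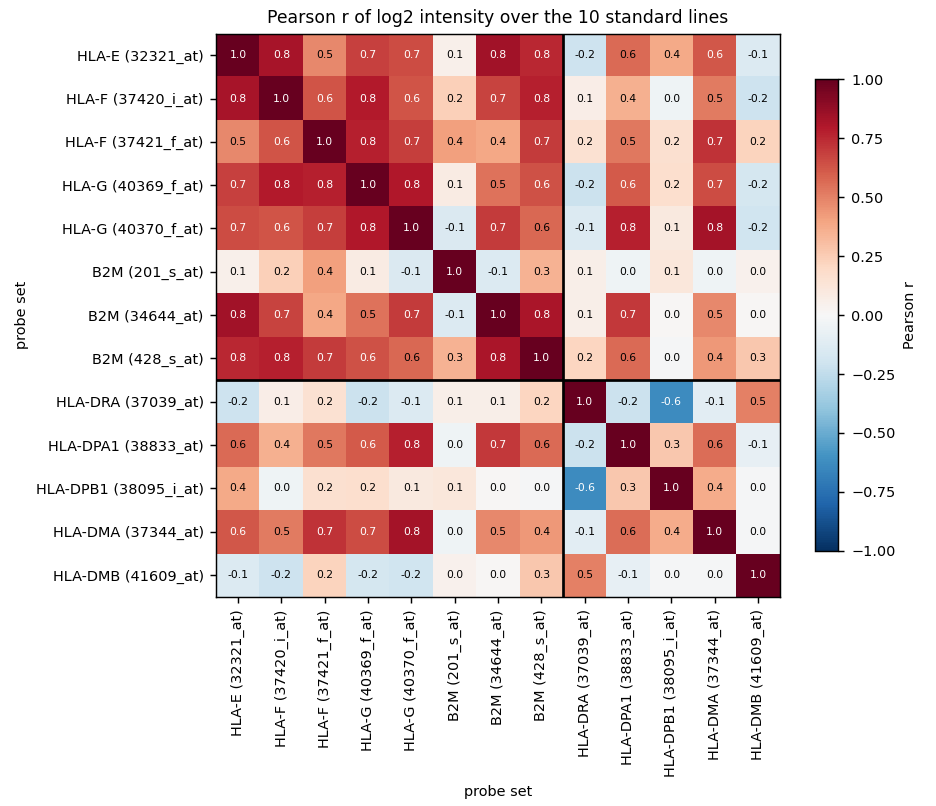
Pearson r of log2 intensity over the 10 standard lines between the 13 MHC probe sets tested, with colour from -1 (blue) to 1 (red) and black lines between class I and class II. Of 28 class I pairs 26 have a positive r, and the 7 that hold B2M 201_s_at run from -0.15 to 0.41. With the class I sets other than B2M 201_s_at, HLA-DMA and HLA-DPA1 have a higher r than HLA-DRA or HLA-DMB. With B2M 201_s_at both have r = -0.04. This order was not tested, and HLA-DMA and HLA-DPA1 are at the floor in several lines.

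Class II probe sets were at the floor in several lines each, apart from HLA-DRA, at the floor in 1 line, and HLA-DMB, in none. HLA-DRA encodes the nearly invariant alpha chain of HLA-DR. It read 159, 126, 142, 229 and 140 in male lines 1 to 5, and 100, 115, 205, 205 and 251 in female lines 1 to 5. It was above the floor in 9 of 10 lines but within 2.51-fold of it in every line. Female line 1, among the highest for class I, was the line in which HLA-DRA was at the floor.

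HLA-DPA1, the alpha chain of HLA-DP, read 100, 163, 135, 100 and 111 in male lines 1 to 5, and 168, 100, 108, 238 and 100 in female lines 1 to 5. Its partner HLA-DPB1, by 38095_i_at, read 296, 226, 329, 107 and 112 in male lines 1 to 5, and 545, 100, 109, 100 and 100 in female lines 1 to 5. The HLA-DPB1 lines fell into 4 at 226 or more (male lines 1 to 3 and female line 1) and 6 at 112 or less. Of the 4 lines highest for HLA-DPA1, female line 1 and male lines 2 and 3 were also among the 4 high for HLA-DPB1, while female line 4, the highest, was at the floor for HLA-DPB1 (r = 0.27 over 10 lines, as a description). The second HLA-DPB1 set, 38096_f_at, was at the floor in all 5 male lines and in female lines 2 to 5, and read 171 in female line 1. Both sets therefore put female line 1 highest, while the second gave no signal in the standard cultures of male lines 1 to 3.

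HLA-DMA and HLA-DMB encode the chains of HLA-DM, which helps class II molecules to exchange the invariant chain fragment for antigenic peptide. HLA-DMA read 133, 100, 213, 119 and 191 in male lines 1 to 5, and 325, 100, 100, 269 and 194 in female lines 1 to 5. HLA-DMB read 640, 246, 290, 321 and 200 in male lines 1 to 5, and 226, 256, 275, 414 and 385 in female lines 1 to 5. HLA-DMB was the 1 class II set above the floor in all 11 cultures. The line highest for HLA-DMB was male line 1, and the line highest for HLA-DMA was female line 1.

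CD74 encodes the invariant chain that fills the class II groove during assembly. It was at the floor in male lines 1 to 4 and read 158 in male line 5. In the female lines it was at the floor in lines 1 to 3 and read 261 in line 4 and 102 in line 5. The transactivator CIITA, by its stronger probe set, was at the floor in all cultures but male line 4 (102). Among markers of antigen-presenting cells, CD14 read 323 in male line 5 and 279 in female line 4, the 2 standard lines highest for CD74, and 100 to 176 in the other standard lines. ITGAX read 100 in male line 5, 359 in female line 4 and 100 to 318 in the other standard lines, and PTPRC, the pan-leukocyte marker, was at the floor in both. The part of other cell types in the CD74 values was not tested.

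**Figure D3:**
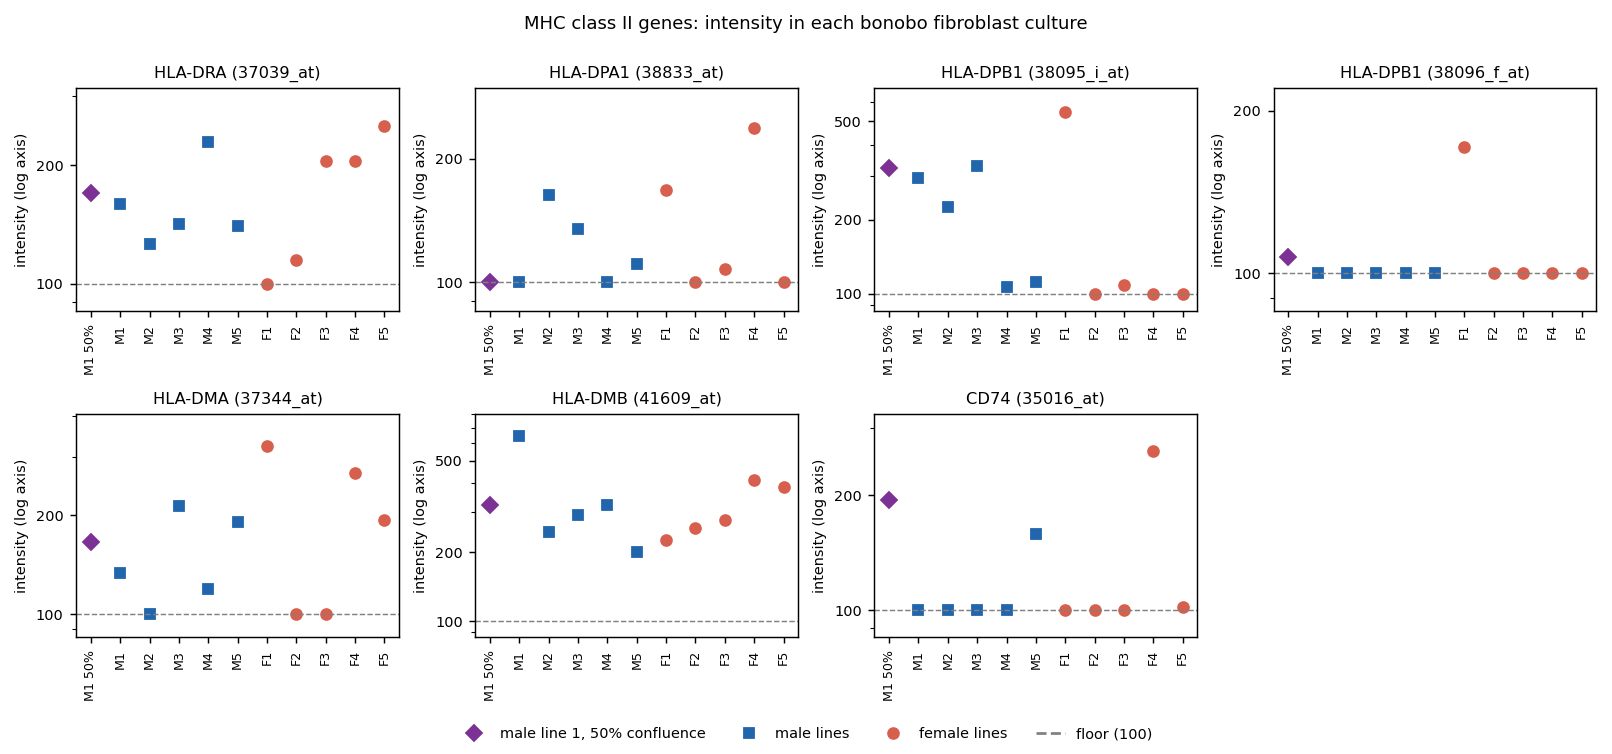
Intensity (log axis, array units) of the 7 class II probe sets in each culture, with male line 1 at 50% confluence (M1 50%, diamond), male lines 1 to 5 (M1 to M5, squares) and female lines 1 to 5 (F1 to F5, circles), each point 1 array and the dashed line the floor of 100. Only HLA-DMB stays above the floor in all 11 cultures, and HLA-DPB1 38095_i_at separates 4 standard lines at 226 or more from 6 at 112 or less.

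Correlation was tested in 11 pairs of genes over the 10 lines, each gene by its probe set of highest mean log2. With HLA-DRA, r was -0.21 for HLA-DPA1 (rho = -0.38), -0.63 for HLA-DPB1 (rho = -0.52), -0.11 for HLA-DMA (rho = 0.00) and 0.50 for HLA-DMB (rho = 0.71). Their permutation p for r was 0.559, 0.0539, 0.764 and 0.142, and for rho 0.269, 0.129, 1.0 and 0.0259. None passed after adjustment over the 11 pairs (lowest adjusted p = 0.593 for r and 0.285 for rho). Without female line 5 and male line 4, r with these 4 genes was 0.11, -0.53, -0.12 and 0.50. HLA-DRA was not correlated past the threshold with B2M (r = 0.055, rho = 0.21, permutation p = 0.881 and 0.567) or with RFX5, a subunit of the factor that binds class II promoters (r = 0.19, rho = 0.00, permutation p = 0.589 and 1.0), and without the same 2 lines r was 0.075 and 0.18. The pairs of HLA-DRA with CD74 and CIITA were not computed, since these were above the floor in 3 and 1 of the 10 lines.

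For B2M the answer depended on the probe set. By 201_s_at, r was 0.051 with HLA-E, 0.41 with HLA-F (37421_f_at) and 0.085 with HLA-G (40369_f_at). It was 0.29 with the peptide transporter gene TAP1 and 0.20 with the immunoproteasome gene PSMB9. Of these 5 pairs, 0 passed (permutation p for r from 0.239 to 0.888, for rho from 0.263 to 0.917). Without male line 5 and female line 2, the r values with HLA-E, HLA-F, HLA-G and PSMB9 were negative (-0.31 to -0.20) and that with TAP1 was 0.051. The partner's probe set mattered too. Over all 10 lines, r of 201_s_at was 0.24 with HLA-F 37420_i_at and -0.15 with HLA-G 40370_f_at, as a description. The other 2 B2M sets were tried after the data had been seen, in 12 pairs, with p-values adjusted over these 12 alone. By 34644_at, r with HLA-E was 0.84 and rho 0.95 (permutation p = 0.00416 and 0.000160, adjusted 0.0499 and 0.00192), and r was 0.84 without female lines 4 and 1. For HLA-E, 3 of the 10 values are floor values. By 428_s_at, r with HLA-E was 0.75 and rho 0.93 (permutation p = 0.0109 and 0.000340, adjusted 0.0656 and 0.00204), so that rho passed and r did not. The r of 428_s_at with TAP1 was 0.73 and rho 0.47 (permutation p = 0.0234 and 0.182), with neither past the threshold after adjustment. Without male line 3 and female line 2, r of 428_s_at was 0.63 with HLA-E and 0.55 with TAP1.

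Genes of the most similar pattern over the 10 lines were found among 5369 others, each by 1 probe set. For HLA-DRA they were TUBGCP4 (r = 0.93), TBC1D5 (0.91), PIM1 (0.91), HTR3A (0.88) and PIK3CB (0.88). For B2M by 201_s_at they were PMPCA (0.88), ASCC2 (0.86), ENPP1 (0.85), LILRA3 (0.84) and PPP1CA (0.84). With 10 lines, 23 genes had an r over 0.8 with HLA-DRA and 12 with this B2M set. How many of 5369 genes would reach this by chance was not tested, so the named genes are a description. HLA-E ranked 4 by likeness to B2M 34644_at (r = 0.84), after DRD2, EIF4EBP2 and KLC1, in a search added after the data had been seen.

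The first comparison asked whether MHC genes differed between male and female lines. No MHC probe set did so past the threshold. With limma, adjusted over 7333 probe sets, 0 of 13 had an adjusted p under 0.05, as against 0.0273% of all probe sets, and 1 of 13 had an unadjusted p under 0.05, as against 2.33%. The male and female intensities did not overlap in 0 of 13, against 0.286% of all probe sets. The estimate was below 0, lower in males, for 10 of 13, as for 49.4% of all, and the median was -0.16 against 0.00 over all probe sets. This count of signs moved with single lines: 6 rather than 3 estimates were positive without female line 4 and 5 without male line 5. It was 5 with array weights. Class I sets vary together across the lines, so these signs are not separate observations.

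The MHC set of lowest p was B2M 201_s_at, with 16499 ± 3938 in male lines and 10152 ± 1935 in female lines (SD, n = 5 each). Its log2 difference was 0.69 ± 0.23 (SE; unadjusted p = 0.00815 and adjusted p = 1.0 by limma). Leaving out each line gave 0.58 to 0.80. The other B2M sets had estimates of -0.27 ± 0.27 (34644_at) and -0.01 ± 0.23 (428_s_at), with 12479 ± 2044 in male lines and 12853 ± 3652 in female lines for 428_s_at (SD, n = 5 each). A higher B2M level in males was thus read by 1 of 3 probe sets, and the difference between sets was not tested. HLA-G had -0.38 ± 0.25 and -0.38 ± 0.24 by its 2 sets, and HLA-F -0.50 ± 0.53 (37420_i_at) and -0.09 ± 0.25 (37421_f_at). Both HLA-G estimates stayed negative without each line in turn. Among class II genes, HLA-DPB1 had 0.42 ± 0.46, HLA-DMA -0.27 ± 0.32, HLA-DPA1 -0.16 ± 0.27, HLA-DRA -0.08 ± 0.28 and HLA-DMB 0.04 ± 0.34, so each SE was close to or above the size of the estimate. The HLA-DPB1 estimate rested on single lines: it was 0.89 without female line 1 (unadjusted p = 0.0158, adjusted p = 1.0 by limma) and 0.14 to 0.58 without each other line, and 0.82 with array weights. HLA-F 37420_i_at ranged from -0.83 without male line 2 to -0.04 without male line 3.

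The second comparison asked whether MHC genes changed with donor age. By limma 0 of 13 passed, as did 0.0% of all 7333 probe sets, and 2 of 13 had an unadjusted p under 0.05 against 3.42% of all. Slopes over 10 years were positive for 12 of 13, as for 49.4% of all probe sets, and 10 to 12 were positive when each line was left out. All 8 class I slopes were positive (0.13 to 0.81, median 0.26), and all remained so without each line. As these sets vary together across the lines, they are not separate observations of a trend.

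HLA-F 37420_i_at had the largest slope, 0.81 ± 0.37 log2 over 10 years (unadjusted p = 0.0424, adjusted p = 0.999 by limma). The 2 female lines of 20 years read 774 and 770 and male line 5, of 19 years, 952, but female line 1, of 9 years, was higher than all of these at 1337. HLA-DMA had 0.49 ± 0.22 (unadjusted p = 0.0414, adjusted p = 0.999 by limma), and 0.049 with the floor at 200 (unadjusted p = 0.639). Floor values were found in 3 of the 4 lines of 2 or 4 years (female lines 2 and 3 and male line 2), and values above it in all 5 lines of 12 years or more and in female line 1. HLA-DRA had 0.32 ± 0.19, HLA-F 37421_f_at 0.31 ± 0.17, HLA-G 40370_f_at 0.29 ± 0.17 and 40369_f_at 0.16 ± 0.18, and HLA-E 0.28 ± 0.28. With the floor at 200, HLA-DRA had 0.080 and HLA-E 0.018. The B2M slopes were 0.24 ± 0.19, 0.19 ± 0.16 and 0.13 ± 0.16 by 34644_at, 428_s_at and 201_s_at. HLA-DPB1 was the 1 set with a negative slope (-0.43 ± 0.32, and -0.14 with the floor at 200), and 2 sets changed sign with single lines. They were HLA-DPA1 (0.09 ± 0.19), negative without female line 2 or 4, and HLA-DMB (0.04 ± 0.24), negative without male line 2 or female line 2, 4 or 5.

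**Figure D4:**
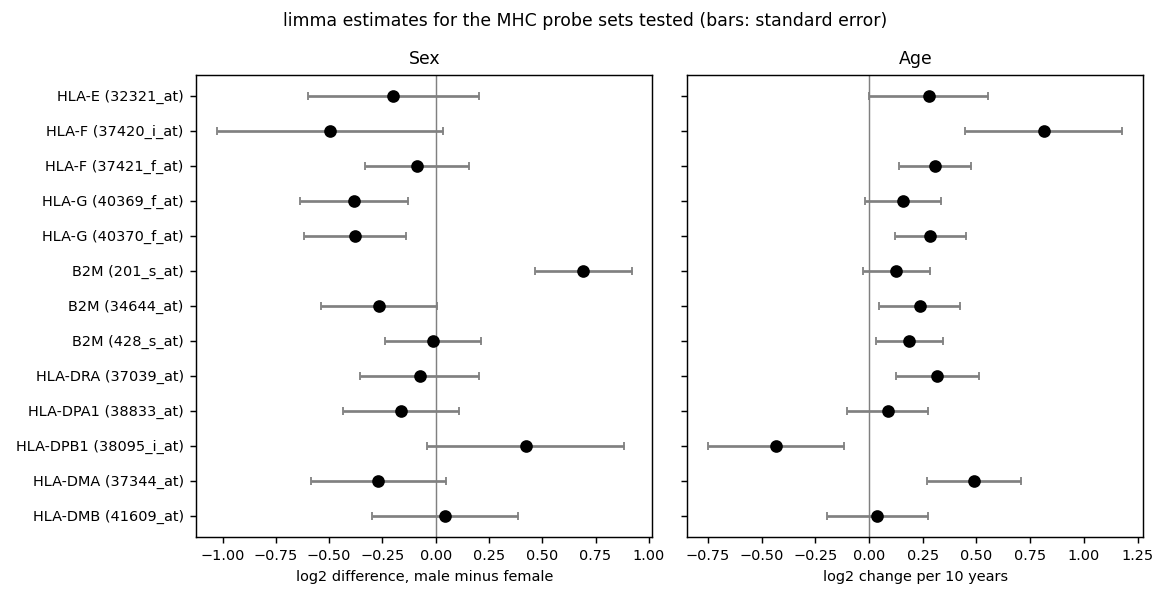
limma estimates (points) with their standard errors (bars) for the 13 MHC probe sets tested, as the log2 difference of male minus female lines (left) and the log2 change per 10 years of donor age (right), over 10 lines. B2M 201_s_at stands at 0.69 for sex, apart from the other B2M sets, and 12 of 13 age slopes are above 0, while 0 of 13 passed the adjusted threshold in either panel.

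The genes that load class I molecules were set beside these slopes. Of 15 peptide loading genes, 13 were on the array with a single symbol and 11 were tested. None passed by limma for age, and 10 of 11 slopes were positive, against 49.4% of all probe sets. The median was 0.23 against 0.00 over all probe sets. PSMB8, PSMB10, PSME1 and TAPBP were all highest in female line 1, so these signs are not separate observations. PSMB8, an immunoproteasome subunit, had 0.71 ± 0.27 (unadjusted p = 0.0194) and TAP1 0.62 ± 0.29 (unadjusted p = 0.0490), both with an adjusted p of 0.999 by limma. PSMB8 read 341, 224, 247, 562 and 504 in male lines 1 to 5, and 606, 104, 162, 265 and 513 in female lines 1 to 5, and so was lowest in female line 2 and highest in female line 1. PSMB10 (0.41), PSMB9 (0.38) and the transporter bridge gene TAPBP (0.29) had positive slopes too, and HSPA5, an endoplasmic reticulum chaperone, the 1 negative slope (-0.16). TAP2 was above the floor in 2 of 11 cultures and ERAP1, a peptide-trimming enzyme, in 0.

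Of 16 class II pathway and regulator genes, 15 were on the array and 9 tested, with 0 passing for age. Positive slopes were found in 5 of 9, against 49.4% of all probe sets, and the median was 0.04. RFX5 had 0.46 ± 0.19 (unadjusted p = 0.0271, adjusted p = 0.999 by limma), with 100, 117, 216, 209 and 214 in male lines 1 to 5, and 244, 115, 177, 270 and 168 in female lines 1 to 5. Its partners RFXAP and RFXANK were at the floor in all 11 cultures. The lysosomal protease gene CTSD had 0.43, NFYC 0.12 and NFYA 0.11, the last 2 being subunits of the factor that binds CCAAT boxes. CTSS, the protease that degrades the invariant chain in antigen-presenting cells, was at the floor in all 11 cultures.

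Of 45 interferon response genes, 41 were on the array and 30 tested, with 0 passing for age. Positive slopes were found in 19 of 30, against 49.4% of all probe sets, and the median was 0.01. The largest slopes were those of LGALS3BP (1.22 ± 0.28, adjusted p = 0.834 by limma), IFIT3 (0.47), BST2 (0.43) and the transcription factor gene IRF1 (0.35). IRF1 read 172, 100, 238, 162 and 223 in male lines 1 to 5, and 214, 115, 171, 152 and 265 in female lines 1 to 5, and was at the floor in male line 2. CXCL9, CXCL10, GBP2, OAS1 and IFI27 were at the floor in all 11 cultures. Others were above it in all 11, with IFITM3 at 6281 to 13367 in the standard lines and IFITM2 at 1370 to 3835. IFI6 ran from 487 to 5227 and ISG15 from 308 to 1812. Female line 1 was the highest standard line for IFITM2, IFI6 and ISG15, male line 5 for IFITM3 and female line 5 for IFITM1 (1657). A second IFI6 set was above the floor in fewer than 5 cultures and was not tested. Of 21 other MHC and MHC-like genes, 15 were on the array and 5 tested, with 0 passing and slopes of 0.23 for FCGRT and MICB, -0.02 for MR1 and -0.05 for HLA-DQB1.

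**Figure D5:**
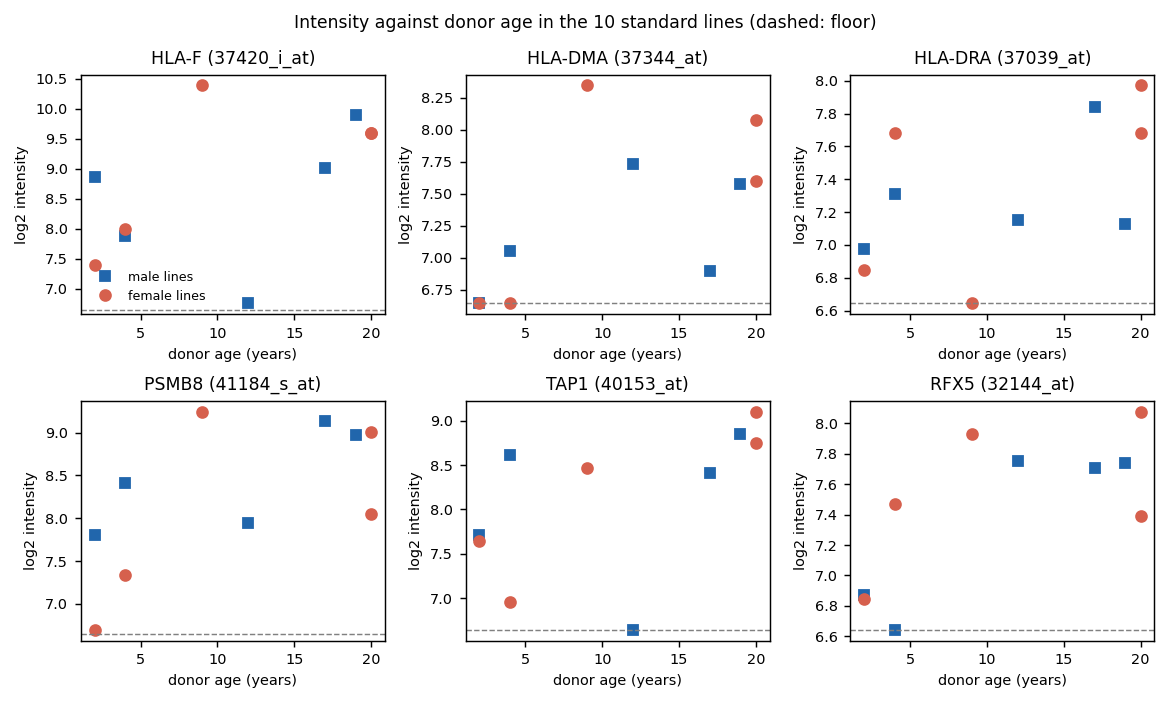
Log2 intensity against donor age in years for 3 MHC probe sets (top) and for PSMB8, TAP1 and RFX5 (bottom), each point 1 of 10 standard lines (squares male, circles female) and the dashed line the floor of 100. Female line 1, aged 9 years, is highest for HLA-F (1337), HLA-DMA (325) and PSMB8 (606), above the lines of 17 to 20 years, and female line 2, aged 2 years, is lowest for PSMB8, and points of nearly equal value overlap.

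By sex, the same lists gave 0 calls. Median estimates were 0.04 for peptide loading, -0.14 for the class II pathway, -0.02 for the interferon response and -0.01 for other MHC-like genes. The largest in each were the proteasome activator gene PSME3 (-0.71, unadjusted p = 0.0253), PSMB8 (0.40), HSPA5 (-0.15) and TAPBP (-0.14), then NFYC (-0.27), CTSL (-0.20), RFX5 (-0.19) and CTSD (-0.19). In the interferon list they were SP110 (0.45), IRF7 (0.44), LGALS3BP (-0.43) and IRF9 (0.41). In the last list PROCR had 0.44 and MICB -0.13.

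The sexes were then compared for their change with age. None of the 13 MHC probe sets passed, against 0.0136% of all, and 0 of 13 had an unadjusted p under 0.05, against 4.84% of all. The male minus the female slope was below 0 for 13 of 13 (-0.77 to -0.12, median -0.40), against 49.4% of all probe sets. Up to 2 of 13 were above 0 when single lines were left out. As for age, class I sets vary together across the lines, so these signs are not separate observations. The largest were HLA-DMB (-0.77 ± 0.44, adjusted p = 0.973 by limma) and HLA-F 37421_f_at (-0.61 ± 0.31, adjusted p = 0.973). For HLA-DMB, male line 1, of 4 years, read 640, against 200 to 321 in the other male lines, and 320 in its culture at 50% confluence. For HLA-F 37421_f_at, male line 4, of 17 years, was the lowest male line (1318). Female line 4, of 20 years, was the highest female line for this set (2934). Male line 4 was also highest in the 3' to 5' signal of ACTB, and the part of RNA quality was not tested.

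Among the pathway genes, 0 passed for the difference in slopes. MICB, which encodes a stress-induced ligand of the natural killer receptor NKG2D, had -0.86 ± 0.27 (unadjusted p = 0.00705, adjusted p = 0.949 by limma). It read 1264, 1230, 1209, 1041 and 874 in male lines 1 to 5, and 865, 894, 1020, 1927 and 1819 in female lines 1 to 5. The female lines of 20 years were the highest of all, and the male lines of 17 and 19 years the lowest of the males. IFI35 had 1.48 ± 0.49 (unadjusted p = 0.00986, adjusted p = 0.949 by limma), and its second probe set 0.70. IRF9 (1.09), TRIM22 (1.03), LGALS3BP (0.91), CTSL (-0.83), TAP1 (-0.62), HSPA5 (-0.59), CALR (-0.57), CTSD (-0.49), CREB1 (0.41), HLA-DOA (-0.39), PSME1 (-0.39), MR1 (0.35), HLA-DQB1 (-0.34) and FCGRT (-0.27) were the other estimates of largest size in their lists.

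Harvest state was compared in male line 1, with 1 culture at 50% confluence and 1 standard culture, so a difference here is without replicates and was not tested. Among 12 MHC probe sets above the floor in both, 8 were higher and 4 lower at 50% confluence, as 49.3% of all 6147 probe sets were lower. None was over 2-fold higher, against 4.88% of all, or over 2-fold lower, against 4.75%, which makes 9.63% either way. The median log2 difference was 0.11, against 0.01 over all. All 12 values at 50% confluence stayed between the lowest and the highest of the 10 standard lines, while 17.5% of all probe sets did not.

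HLA-DMB had the largest difference, 320 at 50% confluence against 640 in the standard culture (2.00-fold lower, and 1 of 12 past 2-fold under quantile normalization). Male line 1 was the standard line highest for HLA-DMB, so the 50% confluence value lay back within the other lines. HLA-F differed in direction between its sets, with 392 at 50% confluence against 236 in the standard culture by 37420_i_at, and 1434 against 2113 by 37421_f_at. HLA-E read 200 at 50% confluence against 139 in the standard culture, and HLA-DMA 166 against 133.

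The other class I sets moved little. B2M read 17458 at 50% confluence against 16746 in the standard culture by 201_s_at (lower under quantile normalization, at -0.02 log2), 4086 against 3691 by 34644_at, and 12020 against 13388 by 428_s_at. HLA-G read 1058 against 1110 by 40369_f_at and 1014 against 834 by 40370_f_at. HLA-DRA read 170 at 50% confluence against 159 in the standard culture, and HLA-DPB1 38095_i_at 323 against 296. HLA-DPB1 was thus well above the floor in both cultures of this line, as in 3 other standard lines. CD74 read 195 at 50% confluence and was at the floor in the standard culture, HLA-DPB1 38096_f_at read 107 against the floor, and HLA-DPA1 was at the floor in both. Of the blood markers, CD68 read 607 at 50% confluence against 226 in the standard culture, and AIF1 read 141 against the floor. CD2 (139 against 108), CD83 (113 against 104) and CSF1R (133 against 130) were higher too. Lower at 50% confluence were CD1C (100 against 201), CD3E (192 against 290), ITGAX (122 against 194) and MS4A1 (100 against 154). The other blood markers, CD14 among them, were at the floor in both cultures. The summed intensity of all 19 blood markers was 2647 at 50% confluence against 2507 in the standard culture. The part of blood cells in the CD74 value was not tested.

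Of 10 class I peptide loading genes above the floor in both cultures, 7 were lower at 50% confluence, against 49.3% of all probe sets (median -0.35). HSPA5 read 2478 at 50% confluence against 4970 in the standard culture, CALR 4132 against 6699, PSMB8 233 against 341 and PSMB9 139 against 198. A second CALR set was lower too (1151 against 2816). In the class II pathway list 5 of 8 were higher (median 0.24), with the lysosomal protease gene LGMN at 1179 against 641, NFYB at 448 against 283, CREB1 at 295 against 216 and CTSL lower at 5616 against 7219. In the interferon list 13 of 22 were higher (median 0.02). IRF9 read 404 at 50% confluence against 103, IFI35 429 against 119, EIF2AK2 4422 against 1924 and IFITM1 340 against 1093. The second EIF2AK2 set went the other way (160 against 246), and the second IFI35 set was higher by less (218 against 162). MICB read 665 at 50% confluence against 1264, and MR1 718 against 542. The 50% confluence array had the strongest ribosomal RNA control signal of all. Its values were deposited with a floor of 90, and those of the standard culture with 100, before both were floored at 100 here. The part of either in these differences was not tested.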

How the data were processed

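Total RNA of 11 fibroblast cultures was profiled on 1 array each. The deposited values are linear intensities, 1 whole number per probe set, already raised to a floor of 100, or of 90 on 2 arrays. These 2 are the 50% confluence array (2072 values at 90) and that of male line 5 (2321 values at 90). The authors' summarisation and scaling are not given in the sources used here. Here 67 control probe sets were left out of 12625, values were floored at 100 and log2 was taken. Trimmed means (2%) ran from 408 to 423, so the deposited scaling was kept. The 7333 probe sets above the floor in at least 5 arrays were fitted in limma (version 3.58.1, R 4.3.3, lmFit and then eBayes with its trend option) over the 10 standard lines, with sex and age jointly and with an interaction term in a second model. P-values were adjusted by Benjamini and Hochberg's method across all 7333, two-sided, threshold 0.05. P-values measure the spread between lines, with 1 culture each, and the number of arrays limits the precision. Replicate numbers follow accession order and pair nothing. The harvest difference had no test. Correlations used scipy 1.17.1.

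Of the non-control probe sets, 10943 had 1 symbol, 545 several and 1070 none. Several symbols were given for 3 HLA probe sets, which were not named. A pathway gene was represented by its probe set of highest mean log2. The genes and lists were chosen with earlier results of these data known. Named were all MHC sets, per list and comparison the up to 4 largest estimates, correlation partners, always-reported regulators, and the 5 nearest patterns of B2M and HLA-DRA.

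The fits were tested on simulated data with 100 probe sets changed by each size among 7333. For sex, 46% of changes of 1 log2 and 93% of 2 log2 were recovered, with 8 false calls. For age, 77% of slopes of 1 log2 per 10 years and 99% of 2 log2 per 10 years were recovered, with 13 false calls. For sex by age, 10% and 64% were recovered, with 6 false calls. Alternatives covered scaling, floor, pseudocount, filter, variance model, coding of age and leaving out each line.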

Additional observations from a re-analysis of the deposited data

Results flagged for a closer look

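In 39 groups of values (13 probe sets over male lines, female lines and all 10 lines), 2 held a line far from the rest, and chance alone gives about 1 in 20. For B2M 428_s_at, male line 3 read 8824, while the other 4 male lines lay between 13288 and 13450. For HLA-DPB1 38095_i_at, female line 1 read 545, while the other female lines lay between 100 and 109. Female lines 2, 4 and 5 were at the floor, so the rate of 1 in 20 need not hold for this group.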

How the results depend on the processing

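No MHC probe set passed for sex, age or sex by age under any alternative run, including each line left out (0 called throughout). Calls over all probe sets ranged from 0 to 3 for sex (2 as reported), 0 to 1 for age and 0 to 1 for sex by age. The sex estimate of HLA-DPB1 became -7.00e-05 with a floor at 200, and with array weights those of HLA-F 37421_f_at and B2M 428_s_at became 0.13 and 0.058. With single lines left out, sex estimates that changed sign ranged from -0.39 to 0.19 (HLA-E), -0.27 to 0.10 (HLA-F 37421_f_at), -0.11 to 0.11 (B2M 428_s_at), -0.24 to 0.078 (HLA-DRA), -0.32 to 0.066 (HLA-DPA1) and -0.25 to 0.25 (HLA-DMB). Age slopes ranged from -0.11 to 0.22 (HLA-DPA1) and from -0.072 to 0.23 (HLA-DMB). With each line left out, r ranged from -0.29 to 0.28 for HLA-DRA with HLA-DMA, -0.23 to 0.20 for HLA-DRA with B2M, -0.23 to 0.42 for B2M with HLA-E, -0.088 to 0.30 for B2M with HLA-G and -0.15 to 0.40 for B2M with PSMB9. The r of HLA-DRA with B2M was -0.0019 under quantile normalization, and with a floor at 200 it was -0.043, while HLA-DRA with RFX5 had -0.21, B2M with HLA-E -0.31 and B2M with PSMB9 -0.048. The cause of these changes was not tested. With B2M read by 34644_at, 1 correlation passed (HLA-E) rather than 0. At 50% confluence 4 to 5 MHC sets were lower, and HLA-DMB ranged from -1.0 to -0.90 over the scalings, floors and pseudocounts tried. The median SD of MHC sets between lines was 0.47, and 0.45 to 0.50 under the alternatives. No paired analysis was possible because the replicate numbers follow accession order and pair no male with a female line, and harvest state has 1 pair of cultures. Many class II values lie at or near the floor, where a difference is understated.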
